A study of Homo sapiens with 6 samples.

Results

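The J-domain proteins, also called DNAJ or HSP40 proteins, are the co-chaperones of the HSP70 chaperones. Their J domain makes HSP70 split ATP and close on its client protein, so that the J-domain partner sets which clients HSP70 takes up and where in the cell it works. Class A members keep the full layout of the bacterial DnaJ protein, with a glycine- and phenylalanine-rich stretch and a zinc-binding region, class B members lack the zinc-binding region, and class C members share only the J domain and are the most varied in place and task. In the proximal tubule, as in other cells, the cytosolic members act in protein folding and in the heat shock response, and the members of the endoplasmic reticulum act in the folding and disposal of secreted and membrane proteins.

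The family was taken as every row of the expression table whose gene symbol was DNAJA, DNAJB or DNAJC followed by a number. This gave 45 of 20442 rows, of which 4 were class A, 12 class B and 29 class C. Expression was measured by RNA-seq in HK-2, a human cell line derived from the proximal tubule and made immortal with viral genes. There were 6 libraries, 3 labelled HNRNPF overexpression (OE), from cells given a lentivirus that carries HNRNPF, and 3 labelled control (NC), from cells given a control lentivirus. HNRNPF encodes the RNA-binding protein hnRNP F. The labels describe culture for 72 h with 30 mM glucose or with 30 mM mannitol, which served as the osmotic control, and do not say which of these media each library came from. The comparison asks how delivery of HNRNPF was tied to the transcript levels of the family. All values come from 1 cell line. The study describes its libraries as biological replicates. The labels speak of parallel wells and do not tie a library to a culture of its own, and the p-values therefore rest on a spread among libraries that may be technical. The values are bulk measurements, in which fewer cells with a transcript and less of it per cell cannot be told apart.

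HNRNPF itself went against the labels. Its level was 323, 350 and 321 FPKM (fragments relative to the length of the transcript and to all fragments mapped in that library) in the libraries labelled OE, against 555, 563 and 589 FPKM in those labelled NC, which was 0.78 lower on the log2 scale (SE 0.06, adjusted p = 1.07e-04). Whether the group labels were exchanged was not tested, nor whether the gene model counts the delivered transcript. The study's methods give the same gene identifier for the copy delivered to HK-2 and for that delivered to mouse podocytes. Which species the delivered copy came from was not checked here. All directions given here follow the labels as they stand. Correlations of log2 values were 0.992 to 0.994 among the OE libraries and 0.989 to 0.994 among the NC libraries. They were 0.978 to 0.985 between the groups, lower than for any pair within a group. Fits that leave out 1 library are given below. The FPKM values of a library summed to between 846735 and 901018 in the OE libraries and between 876237 and 918194 in the NC libraries. The study's read totals are listed by medium, which the labels do not give for these libraries, so the depth of each library was not used here. Of 13 proximal tubule markers, 4 had a mean of at least 1 FPKM, PAX8, GGT1 and SLC5A2 among them, and LRP2, SLC22A6 and SLC22A8, which define the differentiated tubule, were listed at 0 in every library. GGT1 was 1.39-fold higher in the OE libraries (adjusted p = 0.00576) and PAX8 and SLC5A2 did not pass the test. The 3 endothelial markers summed to at most 0.41 FPKM in the OE libraries and 0.34 FPKM in the NC libraries. Of the fibroblast markers only COL1A1 passed, higher in the OE libraries, and the 5 fibroblast markers summed to between 17.3 and 17.5 FPKM in the OE libraries, against 14.5 to 16.2 FPKM in the NC libraries. Of the 3 leukocyte markers PTPRC and CD3E stayed at or under 0.1 FPKM, and CD68, a lysosomal protein abundant in macrophages, was at 190, 212 and 190 FPKM in the OE libraries, against 177, 163 and 175 FPKM in the NC libraries, without overlap (log2 0.20, adjusted p = 0.0534). Of 3 tested epithelial markers KRT18 was lower in the OE libraries (log2 -0.20, adjusted p = 0.0233), and CDH1 was at most 0.07 FPKM in any library. The part of these marker genes in the results below was not tested.

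Differences were tested with limma on log2(FPKM + 0.1) over the 12461 genes with a mean of at least 1 FPKM, and p-values were adjusted by the Benjamini-Hochberg method over all of them. A gene passed the test at an adjusted p under 0.05. Of the 45 family members 37 were tested, 3 in class A, 10 in class B and 24 in class C. Of these 37, 4 were higher and 2 were lower in the OE libraries, and 31 did not pass. This is 16.2% of the tested members, against 24.4% of all tested genes. By direction, 11.3% of all tested genes were higher and 13.1% were lower. At an unadjusted p under 0.05 there were 15 of 37 (40.5%), against 39.2% of all tested genes. No member passed with a change of at least 2-fold, which 138 of the 12461 genes did. The median log2 difference was 0.01 over the family and -0.01 over all tested genes. The counts of higher and lower members were 2 and 1 without NC replicate 2, 5 and 4 without NC replicate 3, and 8 and 5 once trends with GC content, transcript length and expression were removed. Over all genes 1247 and 4254 of 12461 passed in the fits without NC replicate 2 and without NC replicate 3, and 3727 of 12314 (30.3%) in the fit with trends removed, against 3039 of 12461 in the fit on every library. The median GC content of the tested members was 43.9%, against 48.5% over all tested genes.

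The 4 higher members were DNAJB1, DNAJB4, DNAJA3 and DNAJA1, all of class A or B, and the 2 lower members were DNAJC10 and DNAJC4, both of class C. Of the 3 tested class A genes 2 were higher and none was lower, with a median log2 difference of 0.19. In class B 2 of 10 were higher and none was lower, with a median of 0.07. In class C none of 24 was higher and 2 were lower, with a median of -0.07. Of all tested genes 11.3% were higher and 13.1% were lower. The classes also differed in level and precision. The median level was 70.2 FPKM in class A, 38.9 FPKM in class B and 16.6 FPKM in class C. Their median SE was 0.065, 0.082 and 0.097 in the same order. Over all tested genes the medians were 19.0 FPKM and 0.094. A smaller SE makes a call easier, so the counts of the classes cannot be compared directly. The difference between the classes was not tested. In 10 members all 3 OE values lay above all 3 NC values, in 10 they lay below, and in 17 the groups overlapped, so that 54.1% of the tested members did not overlap, against 42.1% of all tested genes.

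**Figure D1:**
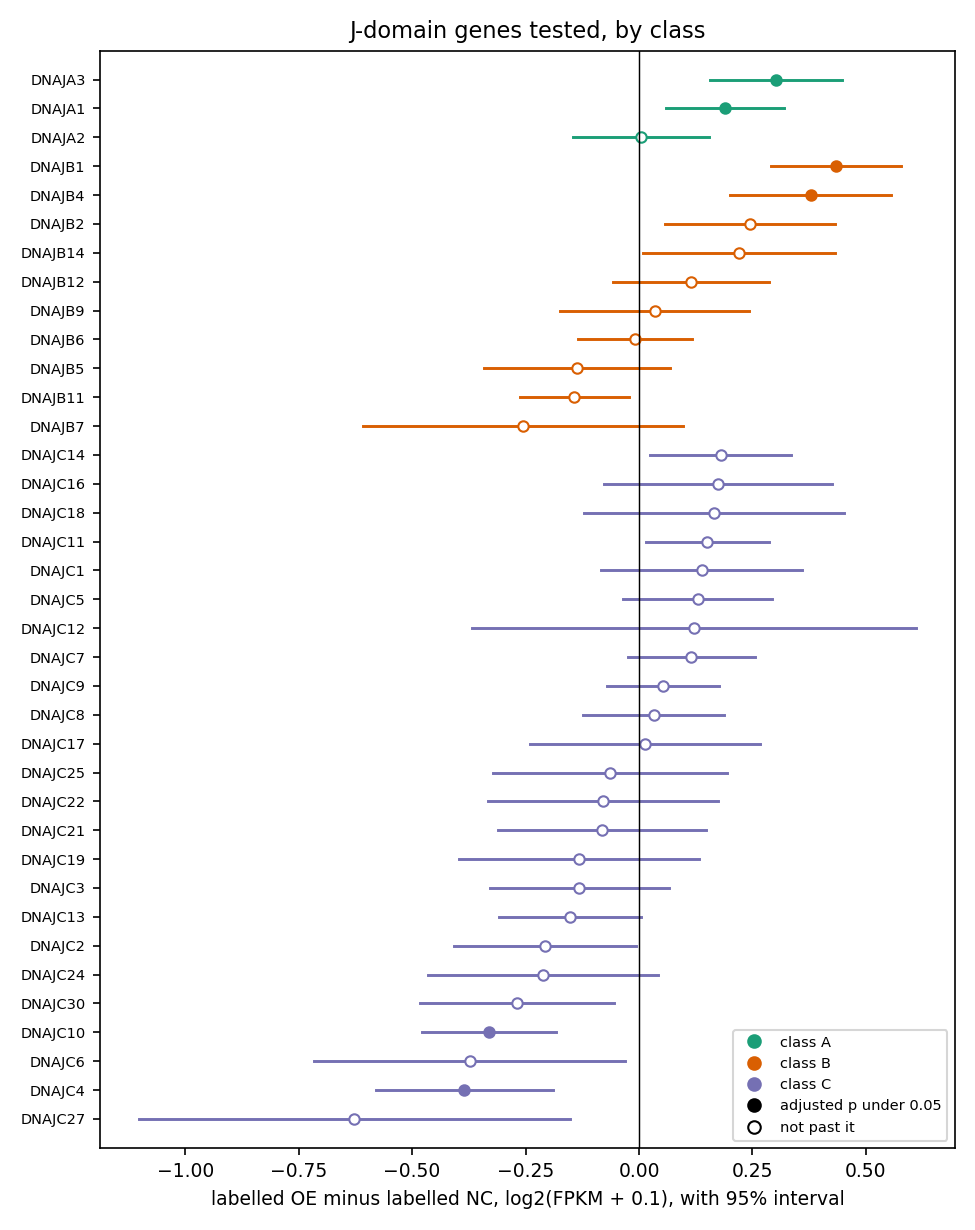
Each point is the difference between OE and NC libraries of 1 tested J-domain gene on the log2(FPKM + 0.1) scale (x axis), with its 95% interval from limma, and the genes are set out by class down the y axis. Filled points passed an adjusted p of 0.05: 2 of class A and 2 of class B lie to the right of 0, and 2 of class C lie to the left.

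Several J-domain genes are known targets of heat shock factor 1 or of the unfolded protein response, and the stretches upstream of 5 members with such a motif are shown: DNAJB1, DNAJA1 and DNAJC10, which passed the test, DNAJB6, the most abundant member, and DNAJA4, which was near the floor of detection. The sequences are RefSeq promoter windows of GRCh38.p14, which run from 250 bases before to 50 bases after an annotated start, and 41 of the 45 members had at least 1 window (53 windows in all). Capitals mark letters of the heat shock element, taken as GAANNTTC on either strand (the motif reads the same on both) or, with a further unit, GAANNTTCNNGAA, which contains the shorter motif, and of the unfolded protein response element, taken as TGACGTGG on either strand. TGACGTGG shares TGACG with the cAMP response element. Positions count back from -1, the base before the annotated start. DNAJB1 had GAANNTTC at -77 and -47 (chr19:14518398-14518547, minus strand, -150 to -1), DNAJA1 at -198 (chr9:33025023-33025172, plus strand, -250 to -101), DNAJA4 at -91 and -52 (chr15:78264412-78264561, plus strand, -150 to -1) and DNAJB6 the longer motif at -131 (chr7:157336854-157337003, plus strand, -150 to -1). DNAJC10 had TGACGTGG on the opposite strand at -125 (chr2:182716107-182716256, plus strand, -150 to -1).
DNAJB1: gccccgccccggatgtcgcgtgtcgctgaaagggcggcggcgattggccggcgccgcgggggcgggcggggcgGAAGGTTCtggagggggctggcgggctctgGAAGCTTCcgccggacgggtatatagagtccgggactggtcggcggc
DNAJA1: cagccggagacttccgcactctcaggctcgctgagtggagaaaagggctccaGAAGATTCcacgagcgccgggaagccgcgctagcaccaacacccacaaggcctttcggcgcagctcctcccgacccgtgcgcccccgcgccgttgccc
DNAJA4: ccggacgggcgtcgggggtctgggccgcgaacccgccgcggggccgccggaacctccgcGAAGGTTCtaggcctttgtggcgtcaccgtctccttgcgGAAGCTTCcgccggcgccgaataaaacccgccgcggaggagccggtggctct
DNAJB6: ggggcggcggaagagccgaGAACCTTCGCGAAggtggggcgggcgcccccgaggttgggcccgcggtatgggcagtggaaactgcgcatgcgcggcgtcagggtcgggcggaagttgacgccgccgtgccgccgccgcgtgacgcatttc
DNAJC10: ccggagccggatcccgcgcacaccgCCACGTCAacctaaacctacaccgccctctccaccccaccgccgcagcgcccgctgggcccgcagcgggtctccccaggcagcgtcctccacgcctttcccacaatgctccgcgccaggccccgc

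GAANNTTC was found in 6.77% of the 35116 RefSeq windows and in 7 of the 53 family windows, which belonged to 6 genes. Besides those printed, the windows were that of DNAJB7 (at -208), a second window of DNAJB1 (at position 2 after its start) and that of DNAJC6 (within the transcribed part). The longer motif was in 0.49% of all windows and in those of DNAJB6 and DNAJA1, the match of DNAJA1 lying at position 4 after the start and therefore outside the printed stretch. TGACGTGG was in 0.729% of all windows and in the family only in that of DNAJC10. The windows of DNAJB4, DNAJA3 and DNAJC4 held none of these motifs. The same units in the order TTCNNGAA were not searched for, so the absence covers only the forms given. Of the 6 genes with GAANNTTC, DNAJB1 and DNAJA1 passed the test, DNAJB6, DNAJB7 and DNAJC6 did not, and DNAJA4 was under the FPKM minimum. These matches describe letters and are not shown to be bound sites.

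The cytosolic and nuclear HSP70 partners held 3 of the 4 higher members. Of the 5 tested genes of this role 3 were higher (60.0%) and none was lower, against 11.3% and 13.1% of all tested genes. Their median level was 70.2 FPKM and their median SE 0.068, against 19.0 FPKM and 0.094 over all tested genes, which makes a call easier. DNAJB1, the main stress-inducible J-domain protein of the cytosol and nucleus (chr19:14514769-14560391), was at 134, 149 and 142 FPKM in the OE libraries, against 104, 101 and 110 FPKM in the NC libraries. The groups did not overlap, and the lowest OE value was 134 FPKM, against a highest NC value of 110 FPKM. The mean was 142 ± 7.37 FPKM in the OE libraries and 105 ± 4.55 FPKM in the NC libraries (SD, n = 3 each), a 1.35-fold difference (log2 0.43, SE 0.06, adjusted p = 0.00227) and the largest rise of the tested members. Part of its exons, 6.4% of the bases in GENCODE v44, lies opposite exons of TECR. Larger shares lie opposite another gene in some members that did not pass, among them DNAJC9 (56.5%), DNAJB7 (23.9%) and DNAJC2 (20.9%). DNAJC14, which did not pass either, shares 23.2% of its exon bases with another gene on the same strand.

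DNAJB4, a close relative of DNAJB1 (chr1:77979175-78017964), was at 26.2, 24.1 and 25.8 FPKM in the OE libraries, against 19.5, 20.9 and 18.0 FPKM in the NC libraries. The groups did not overlap. The means were 25.3 ± 1.12 FPKM in the OE libraries and 19.5 ± 1.45 FPKM in the NC libraries (SD, n = 3 each), a 1.30-fold difference (log2 0.38, SE 0.08, adjusted p = 0.00986). DNAJB4 and DNAJB1 passed the test under each of the 18 other settings tried.

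DNAJA1, a class A protein of the cytosol that helps HSP70 fold and transport new proteins and that can carry a farnesyl anchor (chr9:33025273-33039907), was at 145, 143 and 146 FPKM in the OE libraries, against 132, 127 and 121 FPKM in the NC libraries. The OE values lay close together and above every NC value. The difference was the smallest of the 6 that passed, 1.14-fold (log2 0.19, SE 0.06, adjusted p = 0.0401). It no longer passed when any single OE library or NC replicate 2 was left out, with adjusted p between 0.0719 and 0.135 in those 4 fits. DNAJA2, a class A protein of the same compartment, was at 70.8, 72.1 and 67.9 FPKM in the OE libraries, against 72.5, 73.2 and 64.8 FPKM in the NC libraries. The groups overlapped, and the log2 difference was 0.00 with a 95% interval of -0.15 to 0.16.

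DNAJB5, another relative of DNAJB1, had a log2 difference of -0.14 (adjusted p = 0.295). DNAJA4, which like DNAJA1 has a class A layout, was under the FPKM minimum and was not tested. It was at 0.41, 0.25 and 0.39 FPKM in the OE libraries, against 0.13, 0 and 0.08 FPKM in the NC libraries. All OE values lay above the NC values, all of them below 1 FPKM, and without the minimum DNAJA4 was the 1 further family gene that passed.

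**Figure D2:**
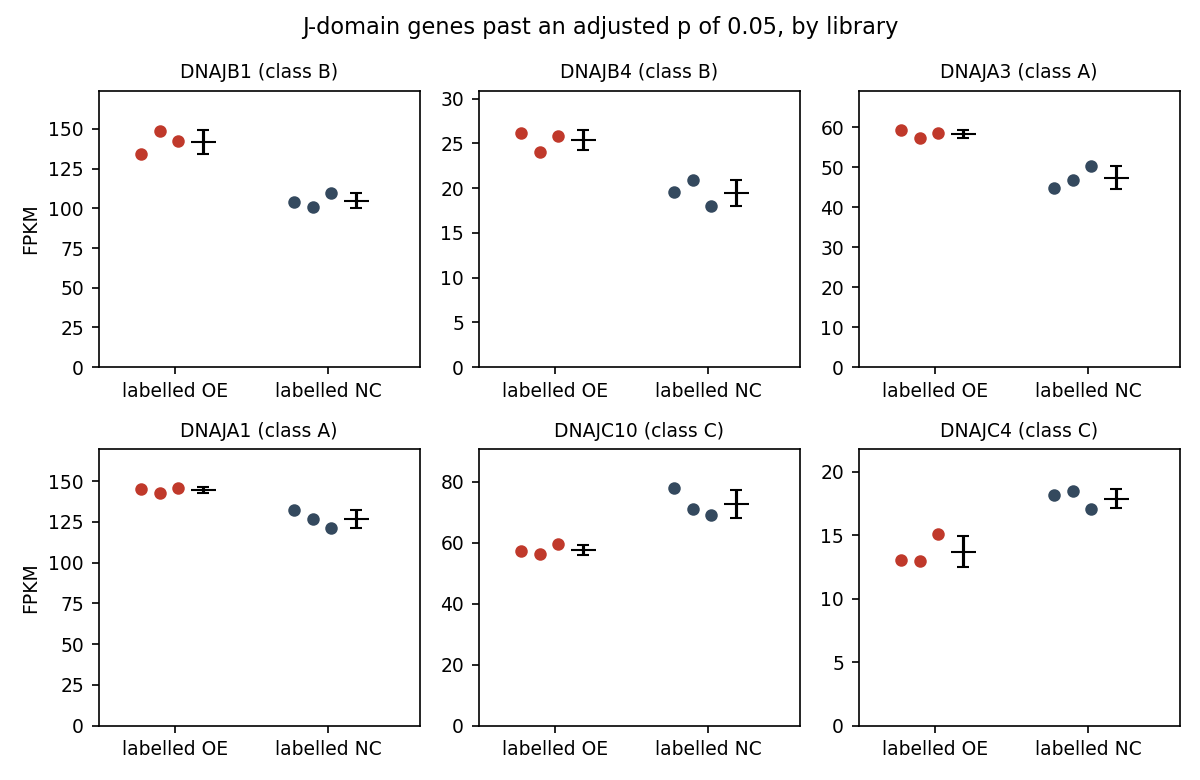
Each panel plots 1 of the 6 J-domain genes that passed an adjusted p of 0.05, with FPKM on the y axis from 0, 1 point for each library, and the mean with its SD as a bar beside the points (n = 3 each). In DNAJB1, DNAJB4, DNAJA3 and DNAJA1 every OE point lies above every NC point, and in DNAJC10 and DNAJC4 every OE point lies below.

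Among the mitochondrial members 1 of 5 tested was higher and 1 was lower. DNAJA3, the class A partner of mitochondrial HSP70, also known as TID1 (chr16:4425868-4456775), was at 59.3, 57.2 and 58.7 FPKM in the OE libraries, against 44.9, 47.0 and 50.4 FPKM in the NC libraries. The groups did not overlap. The difference was 1.23-fold (log2 0.30, SE 0.07, adjusted p = 0.0111). Without NC replicate 2 the log2 difference was 0.30 and the adjusted p was 0.0555.

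DNAJC4, a little studied class C protein with a membrane span (chr11:64230432-64234281), was at 13.0, 13.0 and 15.1 FPKM in the OE libraries, against 18.2, 18.5 and 17.0 FPKM in the NC libraries. The groups did not overlap, and the mean of the OE libraries was 0.766 of that of the NC libraries (log2 -0.38, SE 0.09, adjusted p = 0.0129). Without NC replicate 2 the adjusted p was 0.0621. GENCODE v44 has 10.6% of the exon bases of DNAJC4 also in NUDT22, on the same strand, so that reads there cannot be told apart.

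The other mitochondrial members did not pass. DNAJC11, a protein tied to the cristae-organising complex, had a log2 difference of 0.15 (adjusted p = 0.0967), DNAJC30, which acts at respiratory complex I, one of -0.27 (adjusted p = 0.0665), and DNAJC19, a subunit of the import motor, one of -0.13 (adjusted p = 0.435). The OE and NC values of DNAJC11 and of DNAJC30 did not overlap. DNAJC19 had the widest spread among the abundant members, with an SD of 21.8 FPKM in the OE libraries and 12.8 FPKM in the NC libraries, and GENCODE v44 lists 9 pseudogenes named after it. DNAJC15 was at 0.14, 0.13 and 0 FPKM in the OE libraries and was listed at 0 in every NC library, and DNAJC28 stayed under a mean of 1 FPKM with overlapping groups.

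Of the 10 members of the endoplasmic reticulum, all tested, none was higher and 1 was lower. DNAJC10, also known as ERdj5, a disulfide reductase that works with the HSP70 protein BiP in the disposal of misfolded proteins (chr2:182716257-182794464), was at 57.4, 56.3 and 59.5 FPKM in the OE libraries, against 77.8, 71.1 and 69.0 FPKM in the NC libraries. Every OE value lay below every NC value. The means were 57.7 ± 1.60 FPKM in the OE libraries and 72.7 ± 4.60 FPKM in the NC libraries (SD, n = 3 each), a ratio of 0.796 (log2 -0.33, SE 0.07, adjusted p = 0.0081). The 17 other tested genes in a 10 Mb window around DNAJC10 had a median log2 difference of -0.15. With that shift taken off, the difference of DNAJC10 was -0.18 and did not pass (adjusted p = 0.0957).

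The other members of the endoplasmic reticulum did not pass. DNAJB11, also known as ERdj3, a soluble BiP partner whose gene is mutated in a form of polycystic kidney disease, was the most abundant of them with a mean of 181 FPKM, and had a log2 difference of -0.14 (adjusted p = 0.0822) with groups that did not overlap. DNAJB9, also known as ERdj4, a repressor of the stress sensor IRE1 that is induced by the unfolded protein response, was at 21.6, 21.5 and 24.2 FPKM in the OE libraries, against 24.1, 22.3 and 19.4 FPKM in the NC libraries. The groups overlapped (log2 0.03, 95% interval -0.17 to 0.24). DNAJC3, also known as p58IPK, an inhibitor of the kinase PERK and a BiP partner, was at 12.8, 14.3 and 14.2 FPKM in the OE libraries, against 16.5, 14.5 and 14.4 FPKM in the NC libraries. The OE values lay just below the NC values, and the log2 difference was -0.13 (adjusted p = 0.295, 95% interval -0.33 to 0.07). The membrane-anchored DNAJB12 and DNAJB14, which take part in the disposal of membrane proteins, had log2 differences of 0.11 (adjusted p = 0.296) and 0.22 (adjusted p = 0.115). The remaining 4, DNAJC1, DNAJC16, DNAJC18 and DNAJC25, had adjusted p-values between 0.277 and 0.714.

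The suppressors of protein aggregation did not pass. DNAJB6, which keeps polyglutamine and amyloid peptides from aggregating, was the most abundant gene of the family, with 227, 213 and 223 FPKM in the OE libraries, against 228, 219 and 220 FPKM in the NC libraries. The groups overlapped, and the log2 difference was -0.01 with a 95% interval of -0.13 to 0.12, so that a change of the size seen in DNAJB1 lay outside the interval. DNAJB2, which hands ubiquitinated clients to the proteasome, had a log2 difference of 0.24 (adjusted p = 0.0584) with groups that did not overlap, and DNAJB7 one of -0.25 (adjusted p = 0.259). DNAJB8, known from testis, was listed at 0 in every library.

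The vesicle and endosome members did not pass either. DNAJC5, the cysteine string protein of secretory vesicles, was at 93.3, 102 and 108 FPKM in the OE libraries, against 89.4, 89.2 and 98.7 FPKM in the NC libraries. The highest NC value lay above the lowest OE value, and the log2 difference was 0.13 (adjusted p = 0.219). DNAJC6, or auxilin, which strips clathrin from vesicles, had a log2 difference of -0.37 (adjusted p = 0.102) and DNAJC13, an endosomal protein, one of -0.15 (adjusted p = 0.135), both with OE values below all NC values. DNAJC5B and DNAJC5G stayed under a mean of 1 FPKM, with overlapping groups.

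The 3 nuclear members had differences near 0. DNAJC8, a splicing factor partner and the most abundant gene of class C, was at 166, 180 and 167 FPKM in the OE libraries, against 178, 170 and 154 FPKM in the NC libraries. The groups overlapped (log2 0.03, adjusted p = 0.763). DNAJC9, which carries histones H3 and H4, and DNAJC17, a splicing protein, had log2 differences of 0.05 (adjusted p = 0.507) and 0.01 (adjusted p = 0.943). The 3 members tied to ribosomes and translation all had negative differences that did not pass: -0.21 for DNAJC2, which sits at the ribosome exit tunnel (adjusted p = 0.119), -0.08 for DNAJC21, which matures the large ribosomal subunit (adjusted p = 0.587), and -0.21 for DNAJC24, which acts in diphthamide synthesis on elongation factor 2 (adjusted p = 0.196). In each of these 6 genes the groups overlapped.

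Among the remaining members DNAJC7, a cytosolic protein with tetratricopeptide repeats that bind both HSP70 and HSP90, was at 66.0, 65.3 and 65.6 FPKM in the OE libraries, against 62.4, 62.7 and 56.8 FPKM in the NC libraries. The OE values lay above every NC value by a narrow margin, and the log2 difference of 0.12 did not pass (adjusted p = 0.203). DNAJC27, a Rab-like GTPase with a J domain, had the largest difference of the tested members at -0.63, at a mean of 1.28 FPKM, and missed the threshold (adjusted p = 0.0566). DNAJC14, DNAJC12 and DNAJC22 had log2 differences of 0.18 (adjusted p = 0.0854), 0.12 (adjusted p = 0.713) and -0.08 (adjusted p = 0.639). DNAJB13, a protein of the ciliary axoneme, was under the minimum, with 1.10, 0.88 and 1.02 FPKM in the OE libraries, against 0.41, 0.48 and 0.69 FPKM in the NC libraries, and these did not overlap. The readthrough transcript DNAJC25-GNG10 was listed at 0 throughout, and its exons overlap those of DNAJC25.

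On the FPKM scale, which is per transcript length, the family was led by a few genes. Its 7 most abundant members, DNAJB6, DNAJB11, DNAJC8, DNAJC9, DNAJA1, DNAJC19 and DNAJB1, had means of at least 100 FPKM over the 6 libraries, 31 of the 45 members were at 10 FPKM or more, and 8 stayed under 1 FPKM. The 5 most abundant held 43.7% of the summed FPKM of the family. DNAJB1 changed its place in this order, with a mean of 142 FPKM in the OE libraries, next to 145 FPKM of DNAJA1, against 105 and 127 FPKM in the NC libraries.

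**Figure D3:**
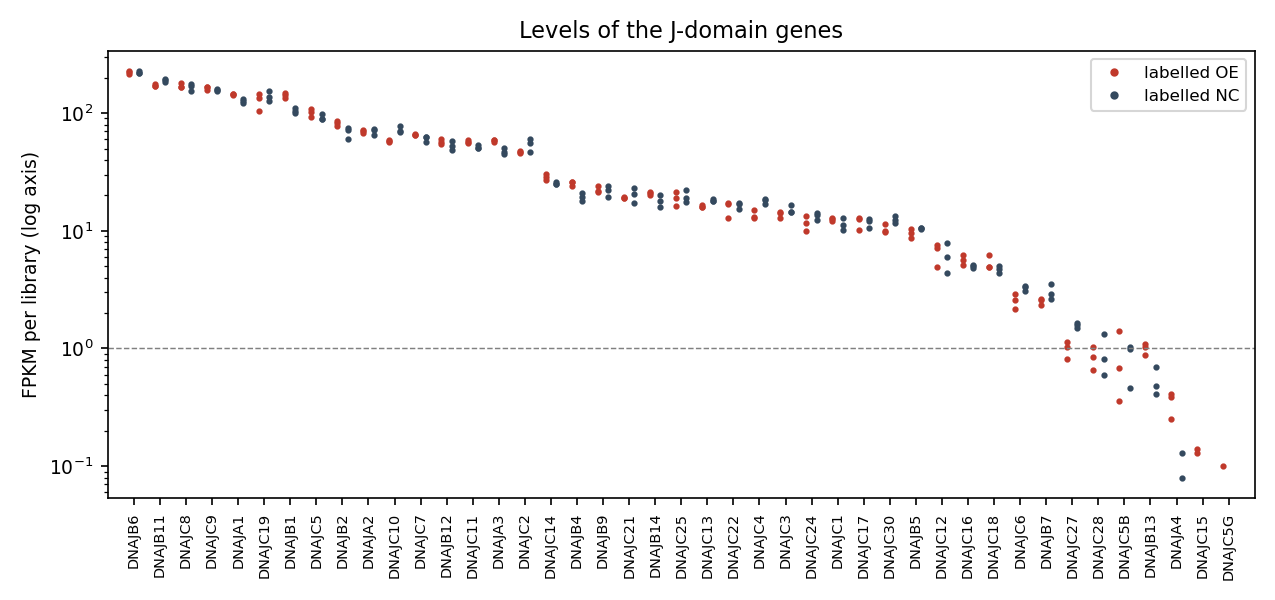
FPKM of each J-domain gene in each library (y axis, log scale), with genes in order of their mean level along the x axis and OE points left of NC points within a gene. Values of 0 have no point, the dashed line is the minimum of 1 FPKM for the test, and DNAJB6 leads at about 222 FPKM.

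Summed over class A, FPKM was 276, 272 and 273 in the OE libraries, against 250, 247 and 236 in the NC libraries, which did not overlap, and the ratio of the means was 1.12. The class B sums were 756, 752 and 759 FPKM in the OE libraries, against 709, 715 and 716 FPKM in the NC libraries, again without overlap and with a ratio of 1.06. The class C sums overlapped, with 995, 957 and 1007 FPKM in the OE libraries and 1050, 997 and 954 FPKM in the NC libraries. Over the whole family the ratio of the means was 1.03. These sums weigh abundant members most and were not tested.

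The genes around the 6 members that passed did not all move the same way as the member. The median log2 difference of the other tested genes in a 10 Mb window was -0.15 around DNAJB4, which was higher, and 0.14 around DNAJC4, which was lower. It was 0.11 around DNAJB1, 0.06 around DNAJA3, -0.01 around DNAJA1 and, as given above, -0.15 around DNAJC10. With these shifts taken off, 5 of the 6 still passed, and DNAJC30 joined the lower members.

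The partners of the family were read from lists of the HSP70 system outside it, with 51 of 55 genes tested. Of these 12 were higher and 5 were lower in the OE libraries, 33.3% of those tested, against 24.4% of all tested genes, with a median log2 difference of 0.05. The listed genes were more abundant, with a median of 67.4 FPKM against 19.0 FPKM over all tested genes. Their median SE was smaller, 0.069 against 0.094, which makes a call easier. The median absolute log2 difference was 0.188, against 0.175. Among the 12 HSP70 genes 4 were higher and 1 was lower (41.7%), with a median log2 difference of 0.24. The constitutive cytosolic HSP70 gene HSPA8, with which DNAJA1 and DNAJB1 work, was at 523, 513 and 524 FPKM in the OE libraries, against 417, 414 and 376 FPKM in the NC libraries, a 1.29-fold difference (adjusted p = 0.00371). The groups did not overlap. HSPA1A and HSPA1B are near-identical copies, and since unique alignments alone were kept, their values rest on the reads that differ between them. The inducible HSPA1A, HSPA1B and HSPA6 passed with ratios of 2.02, 2.07 and 3.06. The difference of DNAJB1 was smaller than that of these 3 inducible genes on the log2 scale, 0.43 against 1.01, 1.05 and 1.62.

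BiP, the HSP70 of the endoplasmic reticulum encoded by HSPA5, did not pass (log2 0.00, adjusted p = 0.978), nor did HSPA9, the mitochondrial HSP70 that DNAJA3 serves (log2 -0.06, adjusted p = 0.502). Of 16 exchange factors and adaptors of HSP70 5 were higher and none was lower, 31.2% against 24.4% of all tested genes. Their median log2 difference was 0.05, with 9 positive and 7 negative differences. The higher genes of largest change were BAG3 (log2 0.69), HSPA4L (0.48), HSPH1 (0.30) and the mitochondrial GRPEL1 (0.35), all with adjusted p at or under 0.00806. Of 10 genes of the HSP90 system STIP1, the adaptor that joins HSP70 to HSP90, was the 1 that passed (log2 0.55, adjusted p = 3.85e-04). HSF1, the transcription factor of the heat shock response, was higher (log2 0.31, adjusted p = 0.0216) and HSBP1, a small protein that binds HSF1, was lower (log2 -0.38, adjusted p = 0.0199). Of 4 J-domain genes outside the naming rule 1 was lower, HSCB of iron-sulfur cluster assembly (log2 -0.31, adjusted p = 0.0207), and GAK and SEC63 did not pass. That is 25.0% of the 4, against 24.4% of all tested genes. The differences of HSF1, HSBP1 and HSCB no longer passed when OE replicate 2 or 3 or NC replicate 1 or 2 was left out, with adjusted p of up to 0.0817, 0.0796 and 0.0934 in those fits, and that of GRPEL1 did not pass once the shift of its neighbours was taken off (log2 0.10, adjusted p = 0.27). The 5 lower genes of these lists were 9 without NC replicate 3, 3 without OE replicate 3, and 2 without OE replicate 2, NC replicate 1 or NC replicate 2. Lower genes over all 12461 tested also changed in number, from 1629 with every library to 2175 without NC replicate 3 and 1008 without OE replicate 3. They were 1064, 1006 and 711 without OE replicate 2, NC replicate 1 and NC replicate 2.

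**Figure D4:**
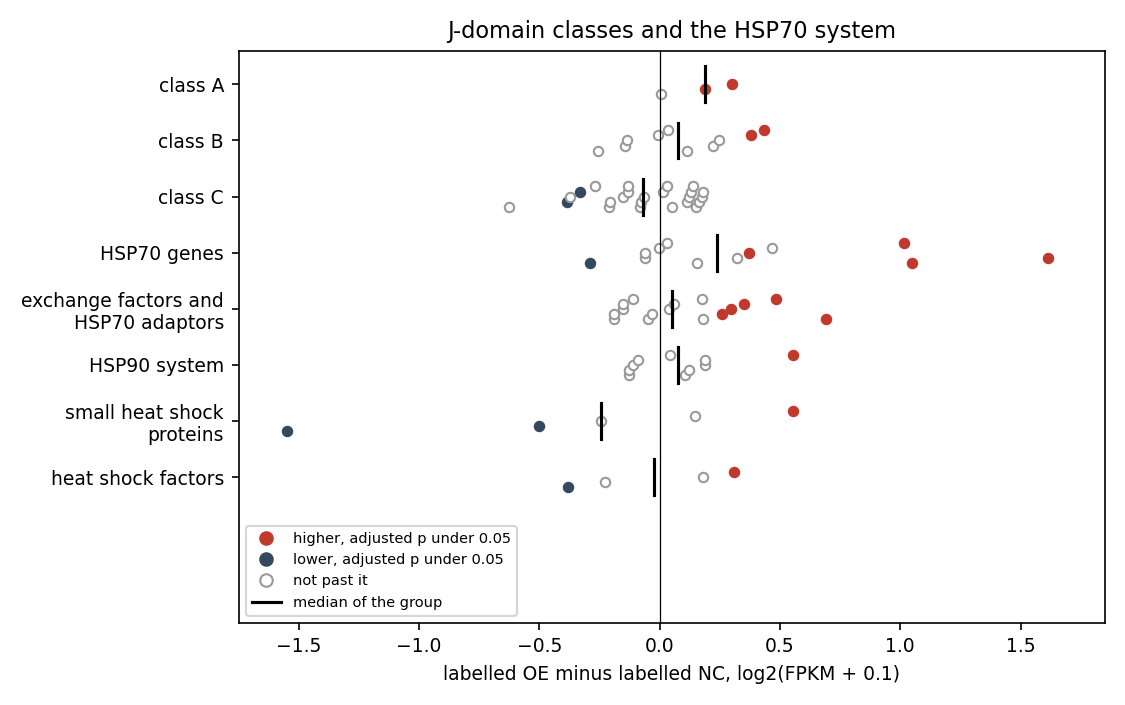
Log2 differences between OE and NC libraries (x axis) of tested genes in the 3 J-domain classes and in 5 lists of the HSP70 system (y axis), 1 point for each gene, with a black line at the median of each group. The highest medians are those of the HSP70 genes at 0.24 and of class A at 0.19, and the lowest is that of the small heat shock proteins at -0.24.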

How the data were processed

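Groups and replicate numbers of the 6 libraries were taken from the sample titles. RNA with poly(A) tails was made into stranded libraries and read from both ends. HISAT2 placed the reads on GRCh38, and unique alignments alone were kept, which lowers genes with near-identical copies (GENCODE v44 lists 32 pseudogenes named after 8 of the members). HISAT2 and DESeq2 appear in the submitters' processing notes, without versions, and the gene annotation was not given in the sources used here. The authors deposited FPKM values with 2 decimals, corrected for transcript length and mapped fragments but not for GC content. The study's methods describe batch adjustment with ComBat_seq and do not state whether it entered this table.

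Between 41.3% and 44.6% of low single-exon values lay within 0.15 of a whole fragment at the best-fitting depth. At any 1 fixed depth 30.0% would do so by chance. The best depth was picked from many, which raises its share, so the excess over 30.0% was not tested. Fragments were not recovered, and a log-scale test took the place of a count test. Genes with a mean of at least 1 FPKM were tested two-sided with limma 3.58.1 (eBayes with trend) in R 4.3.3 on log2(FPKM + 0.1), which understates changes of low genes, with Benjamini-Hochberg adjustment. The procedure was tested on simulated data. Differences are OE minus NC. Replicate numbers did not pair the libraries (correlations of deviations 0.09, -0.09 and 0.01), and no block was used. RefSeq GRCh38.p14 held 99.6% of the 20442 symbols and gave positions and promoter windows. Alternatives changed the pseudocount, the FPKM minimum, the scaling, the variance model, the block and the libraries, or removed trends with GC content, length and expression or shifts shared with neighbours.

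Values in every library were given for members that passed, for the most abundant member of each class, and for DNAJA1, DNAJA2, DNAJA3, DNAJB1, DNAJB6, DNAJB9, DNAJC3, DNAJC5 and DNAJC7. From each other list up to 4 genes that passed, those of largest change, were named. DNAJA4, DNAJB13, DNAJC15, HSPA5, HSPA9, HSPB1, GAK, SEC63 and the markers that did not pass were given outside that rule, after their values were seen. Some items are not reported here. The members, roles and lists were chosen with earlier results of these data known.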

Additional observations from a re-analysis of the deposited data

How the results depend on the processing

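Over the values of the tested members under the 18 alternatives, 606 kept their direction and their call, 9 no longer passed, 13 newly passed and 35 turned direction, all 35 in members that had not passed. Counts of higher and lower members were 8 and 5 with GC content, length and expression removed, which added DNAJB9, DNAJB14, DNAJC7 and DNAJC9 to the higher and DNAJB11, DNAJC27 and DNAJC30 to the lower genes. In that fit 3727 of 12314 genes passed (30.3%). Leaving out 1 library gave 2 to 5 higher and 1 to 4 lower members, with 2 and 1 without NC replicate 2, where DNAJA1, DNAJA3 and DNAJC4 were lost, and 5 and 4 without NC replicate 3, where DNAJB2, DNAJB11 and DNAJC2 were gained. Over all genes these fits passed 1247 to 4254, against 3039 with every library, and the removal of neighbouring shifts 1996. Lower genes of the HSP70 system outside the family ranged over 2 to 9, and lower genes over all tested genes over 711 to 2175. With the replicate number as a block, 3 members were higher and 2 lower, since DNAJA1 was lost (adjusted p = 0.0695), and 3115 of all genes passed. Without the trend in limma DNAJA1 was lost (adjusted p = 0.0843) and DNAJC27 gained (adjusted p = 0.0168), and quantile scaling also gained DNAJC27. The cause was not tested.

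Directions that turned were as follows, as log2 differences. With GC content, length and expression removed they were 0.04 for DNAJC19, 0.019 for DNAJC21, 0.021 for DNAJB6, 0.07 for DNAJC25, -0.001 for DNAJB12, -0.086 for DNAJC17 and -0.001 for DNAJC5. With neighbouring shifts removed they were -0.15 for DNAJC11, -0.014 for DNAJC16, -0.072 for DNAJC8, 0.16 for DNAJC21, 0.066 for DNAJB6, 0.015 for DNAJC3 and -0.10 for DNAJC7. DNAJB6 was at 0.004 with median-of-ratios, 0.027 with TPM and 0.03 with quantile scaling. Leaving out 1 library gave ranges of -0.025 to 0.078 for DNAJC8, -0.233 to 0.012 for DNAJC19, -0.194 to 0.019 for DNAJC21, -0.05 to 0.103 for DNAJB9, -0.027 to 0.017 for DNAJB6, -0.151 to 0.033 for DNAJC25, -0.095 to 0.328 for DNAJC12, -0.147 to 0.052 for DNAJC22, -0.063 to 0.12 for DNAJC17 and -0.052 to 0.036 for DNAJA2. Limits for members near 0 FPKM were not set, since the study's read totals could not be tied to these libraries.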

Other observations

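The small heat shock proteins, which hold unfolded proteins until J-domain proteins and HSP70 take them over, moved in both directions. Of the 9 listed 5 were tested, and of these 1 was higher and 2 were lower, 60.0% against 24.4% of all tested genes. HSPB2 and CRYAB were lower, HSPB2 at 2.77, 4.12 and 4.55 FPKM in the OE libraries, against 9.51, 12.6 and 11.4 FPKM in the NC libraries (log2 -1.55, limma adjusted p = 7.49e-04), and CRYAB at 39.3, 37.2 and 35.9 FPKM in the OE libraries, against 51.1, 54.5 and 53.8 FPKM in the NC libraries (log2 -0.50, adjusted p = 0.00121). HSPB8, the partner of BAG3, was higher, with 110, 119 and 123 FPKM in the OE libraries, against 77.2, 79.2 and 82.8 FPKM in the NC libraries (log2 0.55, adjusted p = 7.46e-04). In none of the 3 did the groups overlap. HSPB1, the most abundant of the list, had a log2 difference of 0.15 and did not pass (adjusted p = 0.118).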
